A study of Homo sapiens with 4 samples.

Results

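10 genes of oxygen sensing were followed in MG-63 and Saos-2, a pair of human osteosarcoma cell lines. They were found as the probe sets whose platform annotation gave exactly 1 gene symbol, equal to EGLN1, EGLN2, EGLN3, HIF1AN, VHL, HIF1A, EPAS1, ARNT, ADM or BNIP3L. All 10 genes were found, with 12 probe sets of the 36176 that carried 1 symbol, since EGLN3 had 3 probe sets and every other gene had 1. Each line was transfected with a control hairpin, sh-NC, or with sh-circ_0000073, a hairpin that targets the circular RNA hsa_circ_0000073. Each of the 4 conditions gave 1 array of total RNA, so that each hairpin was measured once in each line. The sources used here describe standard culture and no low-oxygen arm, and give no time after transfection. The sample titles write si-NC and si-hsa_circ_0000073, whereas the study's methods name sh-NC and sh-circ_0000073 for the arrays. The names were taken here to mean the same reagents, which the labels do not state. The level of hsa_circ_0000073 itself was not analysed here, because no probe set was matched to it.

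Hypoxia-inducible factors (HIF) are transcription factors that carry an alpha subunit, encoded by HIF1A or EPAS1, and a beta subunit, encoded by ARNT. In cells with enough oxygen the prolyl hydroxylases EGLN1, EGLN2 and EGLN3 hydroxylate the alpha subunit, the VHL protein then binds it, and the proteasome degrades it, while the asparagine hydroxylase encoded by HIF1AN blocks its contact with coactivators. When oxygen falls, the alpha subunit is stable and HIF binds short DNA motifs near its target genes, among them ADM, which encodes the vasodilator peptide adrenomedullin, BNIP3L, which encodes a mitophagy receptor, and EGLN1 and EGLN3 themselves. This control acts largely on the protein, whereas the arrays measured RNA alone.

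The sequences of the reagents are shown first, because they define the comparison. The study listed more than 1 hairpin against hsa_circ_0000073 and used the first in its functional assays, whereas the array labels give no number. The capitals mark the T letters that close each listed strand.
sh-hsa_circ_0000073-1: gcugcaaaggggcauaaggaaTT
sh-NC: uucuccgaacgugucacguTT

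The bases before the start site of 4 genes that the results turn on are shown next, as RefSeq gives them on GRCh38.p14. The core motif of HIF was searched as ACGTG and GCGTG on both strands in the 250 bases before each start. Capitals mark the matches.
EGLN1 (chr1:231422288-231422537, - strand): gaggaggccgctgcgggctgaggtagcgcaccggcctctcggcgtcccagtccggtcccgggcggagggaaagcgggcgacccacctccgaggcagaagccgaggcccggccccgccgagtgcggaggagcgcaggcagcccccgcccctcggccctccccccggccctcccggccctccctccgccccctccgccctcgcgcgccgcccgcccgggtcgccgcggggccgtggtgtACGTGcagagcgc
EGLN2 (chr19:40798941-40799190, + strand): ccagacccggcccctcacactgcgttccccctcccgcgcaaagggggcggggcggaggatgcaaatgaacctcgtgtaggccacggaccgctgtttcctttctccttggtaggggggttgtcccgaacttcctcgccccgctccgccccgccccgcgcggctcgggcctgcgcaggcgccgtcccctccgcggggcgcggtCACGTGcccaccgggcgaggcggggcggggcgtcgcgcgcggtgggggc
EPAS1 (chr2:46297157-46297406, + strand): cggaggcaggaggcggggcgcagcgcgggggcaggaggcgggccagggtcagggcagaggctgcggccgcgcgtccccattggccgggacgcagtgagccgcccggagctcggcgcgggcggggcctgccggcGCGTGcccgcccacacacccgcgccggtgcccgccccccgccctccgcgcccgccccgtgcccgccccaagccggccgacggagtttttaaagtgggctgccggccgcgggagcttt
ADM (chr11:10304823-10305072, + strand): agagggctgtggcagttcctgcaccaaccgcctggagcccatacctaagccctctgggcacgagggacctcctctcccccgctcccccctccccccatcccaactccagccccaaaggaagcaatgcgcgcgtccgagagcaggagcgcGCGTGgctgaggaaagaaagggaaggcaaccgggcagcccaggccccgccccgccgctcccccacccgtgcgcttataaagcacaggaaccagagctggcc

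The match in EGLN1 lay close to the start, from 13 to 9 bases before it. That of EPAS1 lay from 117 to 113 bases before its start and that of ADM from 101 to 97. In EGLN2 the letters CACGTG gave a match on each strand, from 49 to 44 bases before the first of its start sites, and CACGTG is also the E-box that MYC and other factors bind. Windows were found for 8 of the 10 genes (not for VHL and BNIP3L), and 5 of the 8 held a match, the fifth being HIF1A at its first start site. EGLN3, ARNT and HIF1AN held none of these letters in the window. The motif is common: 43.2% of 35116 promoter windows held it, and 55.0% of 16564 genes that had both a window and a probe set. Of 38 listed HIF target genes 84.2% held it, and of 15 listed HIF partners and regulators 86.7%. The windows of EGLN1 and EPAS1 had a GC content of 81.2% and 80.8%, against 68.0% for ADM. A gene counted as holding the motif if any of its windows did, so that several start sites gave more chances. Neither base composition nor the number of windows was matched in these shares.

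The array values are log2 signals that the authors made, so that a difference of 1 is a change of 2-fold. The array medians lay between 3.74 and 3.75 over 135750 probe sets. RB1, which is partly deleted in Saos-2, reached 11.90 and 11.91 on the MG-63 arrays but 6.17 and 5.78 on those of Saos-2. The osteoblast genes SPARC, COL1A1 and RUNX2 had log2 signals above 7 on every array, whereas SP7 was at most 2.94 and ALPL at most 3.97 in MG-63. CDH1, PTPRC, PECAM1 and MYOD1, which mark epithelial, blood, endothelial and muscle cells, were at most 4.30 on every array, and the epithelial gene EPCAM had 9.45 and 9.59 in Saos-2. BGLAP was not used here. With 1 array per condition a change with the hairpin inside a line had no replicate check and no p-value, and was read against a fixed size of 1.5-fold. Further questions were then put to all 36176 probe sets with limma: whether the hairpin changed a gene over both lines, with the lines standing as replicates, and whether the lines differed, with the hairpins standing as replicates. Nothing in the labels shows separate cultures behind the arrays of a line. The spread behind these p-values and their intervals is how far the hairpin changes of the 2 lines disagreed, moderated over all probe sets. It is no spread between replicate arrays or cultures, and the small number of 4 arrays limits the precision.

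With sh-circ_0000073, EGLN1 and EPAS1 were lower and EGLN2 and ARNT were higher in both lines. EGLN3 and BNIP3L were also more than 1.5-fold lower and ADM more than 1.5-fold higher in Saos-2, whereas in MG-63 these 3 genes stayed within that size. The RNA came from whole cultures, in which fewer cells and less RNA per cell cannot be told apart. In MG-63, 2 of the 10 genes were thus higher, where 8.93% of all probe sets were, and 2 lower, where 7.18% were. The corresponding counts in Saos-2 were 3 genes higher, against 8.91% of all probe sets, and 4 lower, against 5.22%. In both lines 2 were higher and 2 lower, against 1.73% and 1.23% of all probe sets. The genes were chosen with these results known, and the study had picked EGLN1 and EPAS1 on these arrays for being lower in both lines, so that these counts are descriptions. With limma over both lines, none of the 10 genes passed an adjusted p of 0.05, and of all probe sets 0.0% passed. An unadjusted p under 0.05 was found for 6 of the 10, against 7.26% of all. A separate limma fit of the 12091 probe sets alone gave an unadjusted p under 0.05 for 1582 of them.

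**Figure D1:**
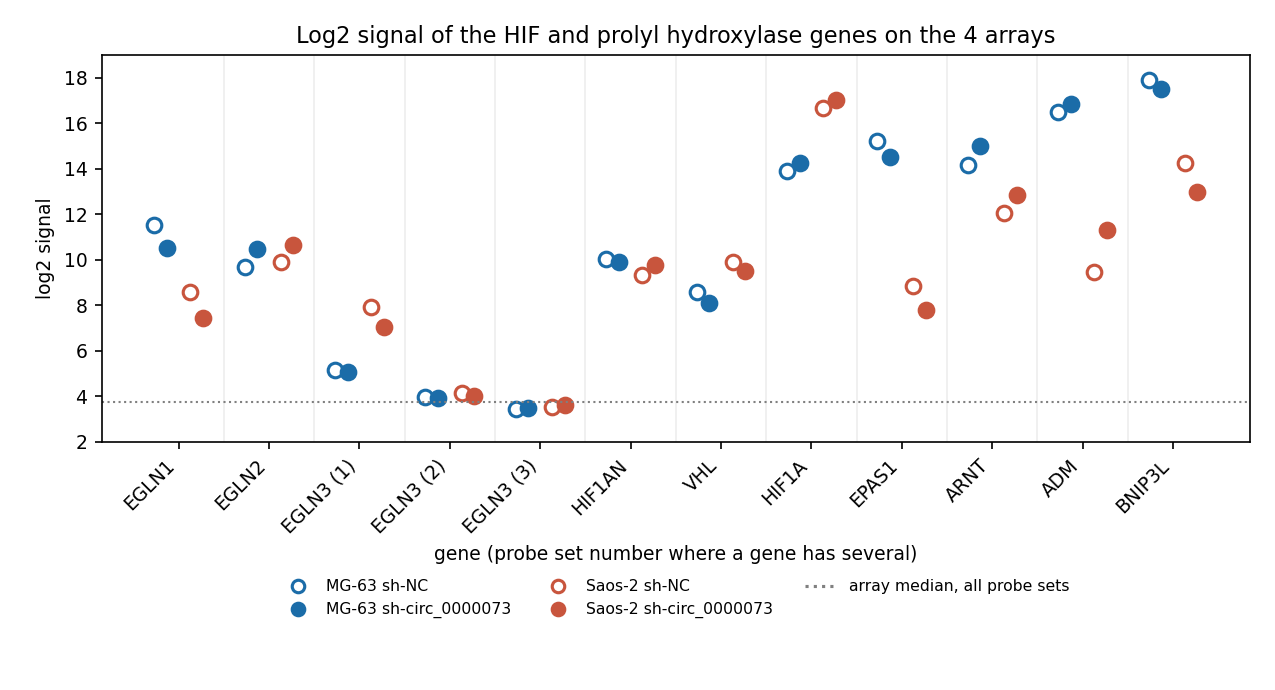
Log2 signal (vertical axis) of the 12 probe sets on the 4 arrays, with MG-63 in blue, Saos-2 in red, open circles for sh-NC and filled circles for sh-circ_0000073. EPAS1 and ADM lie between 14.54 and 16.84 in MG-63 and between 7.77 and 11.32 in Saos-2, whereas HIF1A lies higher in Saos-2 and the dimmer probe sets of EGLN3 lie near the array medians (dotted line).

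Of the oxygen sensors, EGLN1 encodes PHD2, the main prolyl hydroxylase of HIF in most cells. Its log2 signal was 11.52 on the MG-63 control array and 10.51 on its hairpin array, against 8.60 and 7.42 for Saos-2. Both hairpin arrays were thus below their control, by 2.01-fold in the first line and 2.27-fold in the second. Only 605 probe sets lay further down for MG-63 cells and 275 for Saos-2 cells. Among the 446 that were lower in both lines EGLN1 stood at rank 87 by the smaller of its changes. Its mean log2 change was -1.10 (standard error 0.27, 95% interval -1.73 to -0.46), which did not pass over all probe sets (adjusted p = 0.579 from limma).

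EGLN2, which encodes the prolyl hydroxylase PHD1, went the other way. Its log2 signal was 9.67 on the MG-63 control array and 10.46 on its hairpin array, against 9.92 and 10.67 for Saos-2. The hairpin arrays stood above both control arrays, by 1.73-fold for MG-63 cells and 1.68-fold for Saos-2 cells. Its mean log2 change was 0.77 (standard error 0.26, 95% interval 0.15 to 1.39, adjusted p = 0.63 from limma). Transcripts that read through from RAB4B into EGLN2 are annotated on a probe set with several symbols, which was not used, and their share in the EGLN2 signal was not tested.

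EGLN3 encodes PHD3, a prolyl hydroxylase that HIF itself induces. Its brightest probe set had a log2 signal of 5.16 on the MG-63 control array and 5.06 on its hairpin array, against 7.91 and 7.02 for Saos-2. The gene was therefore dim in MG-63, with a change of -0.10, and 1.85-fold lower with the hairpin in Saos-2. Its other probe sets lay between 3.42 and 4.12 on all arrays, close to the array medians, and changed by -0.11 to 0.07. The 3 probe sets thus disagree, and the change of EGLN3 in Saos-2 rests on 1 of them.

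HIF1AN and VHL, the remaining negative regulators, stayed within 1.5-fold in both lines. HIF1AN had a log2 signal of 10.05 on the MG-63 control array and 9.88 on its hairpin array, against 9.33 and 9.76 for Saos-2, and its mean log2 change of 0.13 had a 95% interval of -0.55 to 0.81. VHL had 8.56 and 8.09 on the MG-63 arrays, against 9.92 and 9.50 for Saos-2. Its log2 changes were -0.47 and -0.42, so that both hairpin arrays were lower by a like amount, and the 95% interval of the mean, -1.09 to 0.20, still held 0 and changes past 1.5-fold.

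Of the genes for the alpha subunits, EPAS1 was lower with the hairpin and HIF1A stayed within 1.5-fold. EPAS1, which encodes the alpha subunit of HIF-2, had a log2 signal of 15.24 on the MG-63 control array and 14.54 on its hairpin array, against 8.85 and 7.77 for Saos-2. With the hairpin it was lower by 1.62-fold in MG-63 and by 2.11-fold in Saos-2. The mean log2 change was -0.89 (standard error 0.25, 95% interval -1.48 to -0.30, adjusted p = 0.599 from limma). HIF1A, which encodes the alpha subunit of HIF-1, had 13.89 and 14.25 on the MG-63 arrays, against 16.69 and 17.05 for Saos-2. Its log2 change was 0.36 in each line, which is 1.28-fold, and the 95% interval of the mean ran from -0.05 to 0.77.

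ARNT, the shared beta subunit, had a log2 signal of 14.15 on the MG-63 control array and 15.01 on its hairpin array, against 12.07 and 12.85 for Saos-2. It was higher with the hairpin by 1.82-fold and 1.72-fold. Its mean log2 change was 0.82 (standard error 0.21, 95% interval 0.33 to 1.31, adjusted p = 0.579 from limma), and among the 627 probe sets that were higher in both lines it stood at rank 235, with EGLN2 at rank 274.

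The target genes ADM and BNIP3L passed 1.5-fold in Saos-2 and not in MG-63. ADM had a log2 signal of 16.52 on the MG-63 control array and 16.84 on its hairpin array, against 9.44 and 11.32 for Saos-2. The hairpin array was thus 1.25-fold above its control in MG-63 and 3.68-fold above it in Saos-2, where only 67 probe sets were further up. BNIP3L had 17.90 and 17.53 on the MG-63 arrays, against 14.27 and 12.96 for Saos-2. It was 1.29-fold below its control in MG-63 and 2.48-fold below it in Saos-2, where 190 probe sets were further down. The change in Saos-2 exceeded that in MG-63 by 1.56 for ADM and lay 0.94 below it for BNIP3L on the log2 scale, and with 1 array per condition this difference between the lines could not be tested. Both are known targets of HIF, and in Saos-2 ADM was higher where BNIP3L was lower. Their mean log2 changes were 1.10 for ADM (95% interval 0.27 to 1.93, adjusted p = 0.614 from limma) and -0.84 for BNIP3L (95% interval -1.41 to -0.27, adjusted p = 0.603 from limma).

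**Figure D2:**
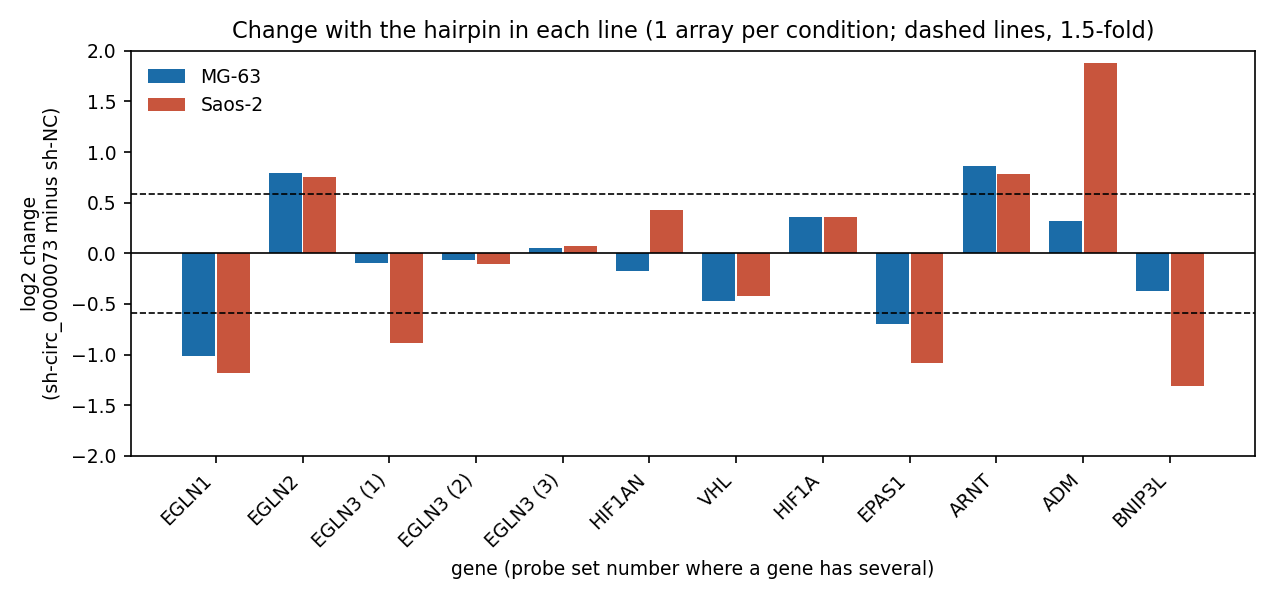
Log2 change with sh-circ_0000073 against sh-NC (vertical axis) for the 12 probe sets, as bars from 0, in MG-63 (blue) and Saos-2 (red), with dashed lines at 1.5-fold and no error bars because each bar rests on 1 array per condition. EGLN1 and EPAS1 pass the lower line and EGLN2 and ARNT the upper line in both lines, whereas ADM, at 1.88, and BNIP3L, at -1.31, pass them in Saos-2 alone.

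The levels of most of these genes differed between the lines. With limma, 8 of the 10 genes differed between the lines, 5 of them higher in MG-63 and 3 higher in Saos-2, where 25.7% of all probe sets were called (13.7% higher in MG-63 and 11.9% higher in Saos-2). The separate limma fit of the 12091 probe sets with a mean log2 level of at least 6, adjusted over those alone, again called 8 of the 10 genes. It called 62.0% of its probe sets. A probe set can reach this mean through its brighter line alone, as that of EGLN3 did, so this share is a description. EPAS1 was 95.7-fold higher in MG-63, with means of 14.89 and 8.31 in MG-63 and Saos-2 (log2 difference of Saos-2 minus MG-63 -6.58, standard error 0.25, adjusted p = 3.7e-06 from limma). HIF1A was 6.96-fold higher in Saos-2, with means of 14.07 and 16.87 (difference 2.80, standard error 0.18, adjusted p = 2.87e-05). The genes for the alpha subunits thus differed between the lines in opposite directions, and for each of them both arrays of a line lay on the same side of both arrays of the other. ARNT was 4.35-fold higher in MG-63 (difference -2.12, adjusted p = 0.000261).

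Among the hydroxylases, EGLN1 was 8.03-fold higher in MG-63 (difference -3.00, 95% interval -3.64 to -2.37, adjusted p = 0.000165), and EGLN3 was 5.12-fold higher in Saos-2 by its brightest probe set (difference 2.36, adjusted p = 0.00113). The signals of this probe set in MG-63, 5.16 and 5.06, were dim, and with no background call in the values the size of its difference is uncertain. The other probe sets of EGLN3 differed by 0.13 and 0.11, near the array medians. EGLN2 differed by 0.23 (95% interval -0.39 to 0.85) and HIF1AN by -0.42 (-1.10 to 0.26), and neither passed (adjusted p = 0.613 and 0.372 from limma). VHL was 2.61-fold higher in Saos-2 (difference 1.39, adjusted p = 0.008). For 9 of the 10 genes, by their brightest probe set, the arrays of 1 line both lay above those of the other, whereas the arrays of EGLN2 were ordered by hairpin and not by line. The same separation of the lines was found for 59.0% of the 36176 probe sets tested.

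The target genes ADM and BNIP3L were both higher in MG-63. ADM was 78.8-fold higher (difference -6.30, standard error 0.36, adjusted p = 1.79e-05) and BNIP3L 17.1-fold higher (difference -4.10, standard error 0.24, adjusted p = 2.25e-05). These sizes are means over both hairpins. For ADM the lines were closer on the hairpin arrays (16.84 against 11.32) than on the control arrays (16.52 against 9.44), and for BNIP3L they were further apart on the hairpin arrays. HIF1A-AS2, an antisense RNA of the HIF1A locus, was chosen after its values were seen. Its brighter probe set had log2 signals of 10.73 and 10.47 on the MG-63 arrays but 4.63 and 4.84 on those of Saos-2, so that it was higher in MG-63, where HIF1A was lower. Its other probe set, with 7.21 and 7.47 against 6.15 and 6.23, was ordered the same way. EGLN3-AS1, the other antisense RNA looked at, was dim and did not separate the lines. It had 3.84 and 4.59 on the MG-63 arrays against 4.12 and 3.94 on those of Saos-2.

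**Figure D3:**
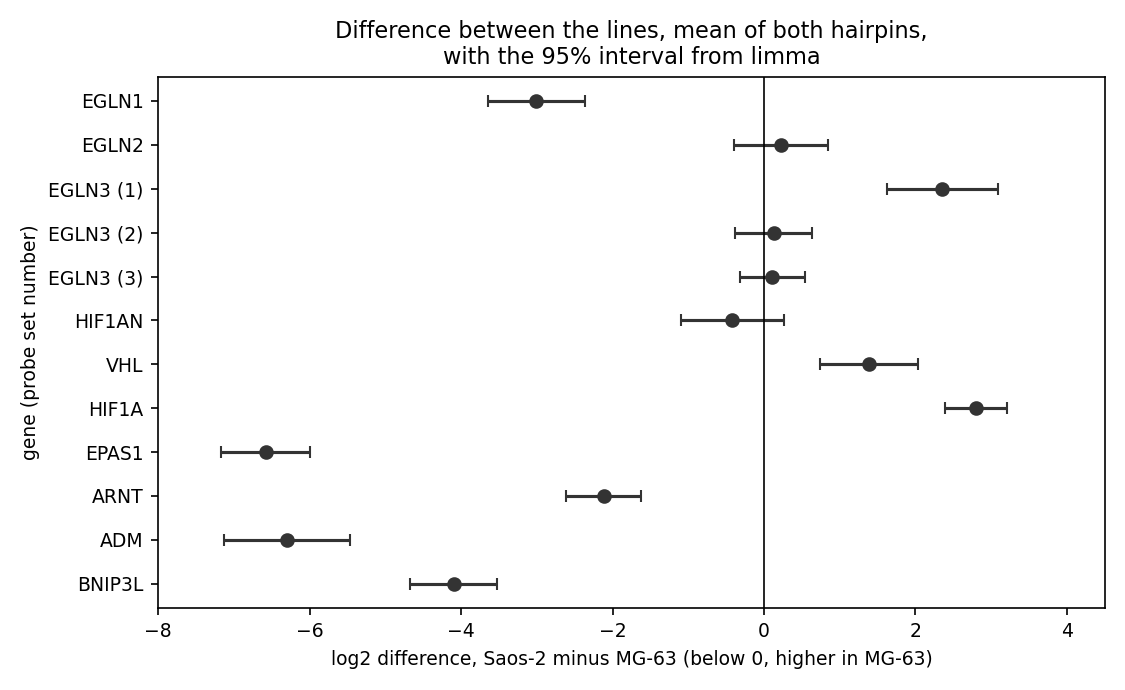
Log2 difference of Saos-2 minus MG-63 (horizontal axis) for the 12 probe sets, averaged over both hairpins, with 95% intervals from limma. EPAS1 and ADM lie at -6.58 and -6.30, HIF1A and the first probe set of EGLN3 at 2.80 and 2.36, and the intervals of EGLN2, HIF1AN and the other EGLN3 probe sets hold 0.

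A list of 20 partners and regulators of HIF was examined next, of which 16 were measured and ARNT2, EP300, NAA10 and RACK1 were not used. With the hairpin, 3 of them were higher in each line, and 1 was lower in MG-63 against 0 in Saos-2, with medians of 0.02 and 0.13 against 0.02 and 0.06 for all probe sets. Among all probe sets the shares higher were 8.93% and 8.91% for the respective lines, and the shares lower 7.18% and 5.22%. Of the 12091 probe sets with a mean log2 level of at least 6, 1696 were higher and 1379 lower in MG-63. In Saos-2, 1897 of these were higher and 1022 lower. SIAH2, a ubiquitin ligase that targets EGLN proteins, had a log2 signal of 10.72 on the MG-63 control array and 12.49 on its hairpin array, against 9.23 and 10.03 for Saos-2. CITED2, which competes with HIF for its coactivators, had 17.30 and 18.24 on the MG-63 arrays, against 13.16 and 14.01 for Saos-2. These were the 2 genes of the list that were higher in both lines, by 3.41-fold and 1.74-fold for SIAH2 and by 1.92-fold and 1.80-fold for CITED2. CREBBP, a coactivator of HIF, was 1.68-fold higher in Saos-2 and 1.47-fold higher in MG-63. KDM6A, a histone demethylase that responds to oxygen, was 1.54-fold higher in MG-63, and OS9, an endoplasmic reticulum lectin, was 1.59-fold lower there. limma called 0 of the 16 for the hairpin, with an unadjusted p under 0.05 for 3, against 7.26% of all probe sets. The separate fit at a mean log2 level of at least 6 gave an unadjusted p under 0.05 for 1582 of 12091. Between the lines the main fit called 5 higher in MG-63 and 4 higher in Saos-2, where 13.7% and 11.9% of all probe sets were called. The separate fit called 62.0% of its probe sets in both directions together. Of the partners and regulators it called 5 higher in MG-63 and 3 higher in Saos-2. Among the largest differences were CITED2 at a difference of -4.18, the oxygen-sensitive demethylase gene KDM5A at -2.17 and KDM6A at 2.10. P4HTM, a transmembrane prolyl hydroxylase, had log2 signals of 3.80 and 3.30 in MG-63, near the array medians, against 7.29 and 7.14 for Saos-2.

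Of 45 listed HIF target genes 42 were measured and used here. With the hairpin most of them stayed within 1.5-fold: 3 were lower in each line, and 4 were higher in MG-63 against 6 in Saos-2, with none past this size the same way in both lines. The shares of all probe sets were 7.18% and 5.22% lower and 8.93% and 8.91% higher in MG-63 and Saos-2. In both lines 1.73% were higher and 1.23% lower. The target counts for MG-63 lay near these shares. Of the 12091 probe sets with a mean log2 level of at least 6, 1696 were higher and 1379 lower in MG-63. In Saos-2, 1897 of them were higher and 1022 lower, so that the targets there lay near this background. The targets had median log2 changes of 0.08 and 0.12, against 0.05 and 0.12 for these 12091. limma called 0 of the targets, with an unadjusted p under 0.05 for 3 of 42, near the 7.26% of all probe sets. In MG-63 the largest increases past 1.5-fold were those of the glycolytic genes ENO2, at 1.33, and PFKFB3, at 0.95, the transferrin receptor gene TFRC, at 0.87, and the mitochondrial gene FAM162A, at 0.83. In Saos-2 the oxidase gene ERO1A went from 14.82 on the control array to 16.46 on the hairpin array and was 3.12-fold higher, and DDIT4, an inhibitor of mTOR signalling, was 2.28-fold higher. The carbonic anhydrase gene CA12 was 1.84-fold higher there, at log2 signals of 4.57 and 5.45, and HK2, a hexokinase, was 1.92-fold lower. In Saos-2 ADM was thus higher, as were ERO1A and DDIT4, and BNIP3L was lower, as was HK2.

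Between the lines the targets were mostly higher in MG-63. limma called 32 of 42 higher in MG-63 and 4 higher in Saos-2, where 13.7% of all probe sets were called higher in MG-63. The separate fit at a mean log2 level of at least 6 called 30 targets and 32.7% of its probe sets higher in MG-63. That minimum can be reached through MG-63 alone. The median difference of the 42 targets was -2.44, against -0.05 for all probe sets. LOX, the collagen cross-linking oxidase, had log2 signals of 18.85 and 18.74 on the MG-63 arrays but 5.18 and 5.43 on those of Saos-2. CXCR4, a chemokine receptor, had 15.53 and 14.87 in MG-63 against 4.66 and 4.35 in Saos-2, and CA12 had 14.85 and 15.41 against 4.57 and 5.45. These Saos-2 signals were close to or not far above the median of the named probe sets on the Saos-2 control array, 4.36, and with no background call in the values no size is given for these differences. NDRG1, a stress-response gene, was brighter, with 8.20 and 8.09 in Saos-2, and differed by -9.70. Thus ADM and BNIP3L lay on the side of most targets, whereas TFRC was higher in Saos-2, at 4.20. EGLN3, which is also a HIF target, was higher in Saos-2 by its brightest probe set, while its other probe sets differed little. The levels of these genes also depend on cell identity, and what part HIF had in the difference was not tested.

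**Figure D4:**
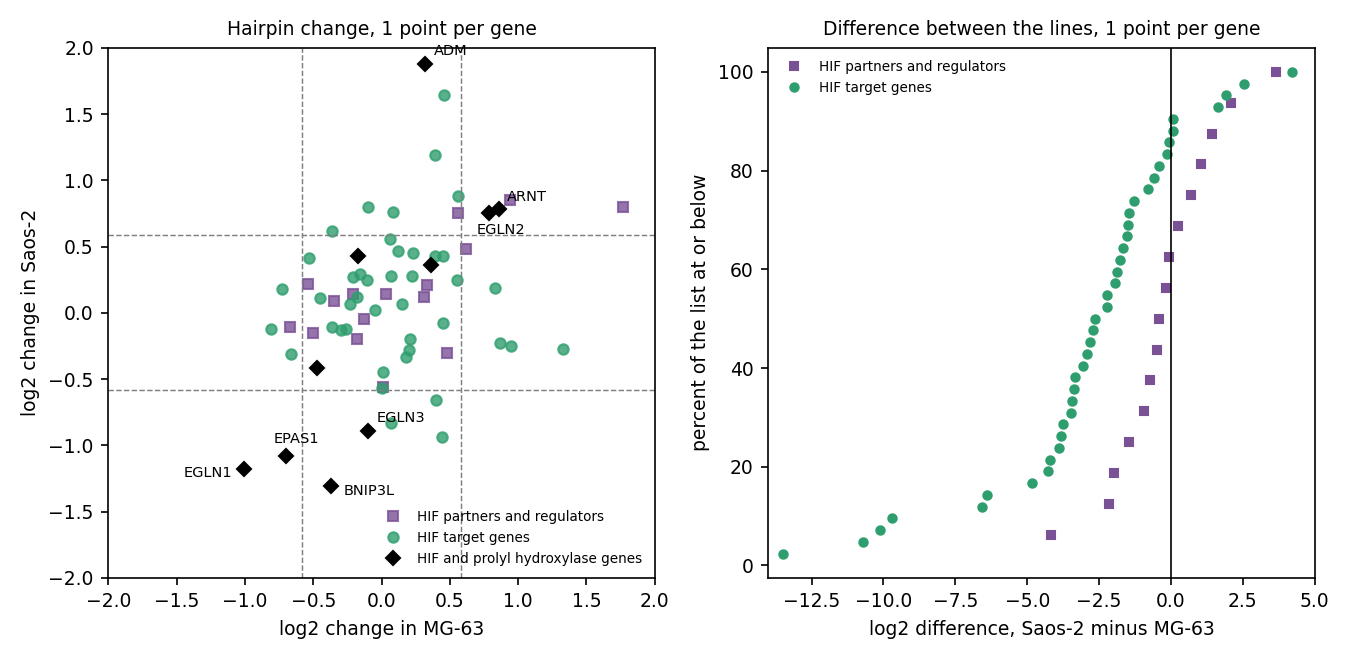
Left, log2 change with the hairpin in MG-63 (horizontal) and Saos-2 (vertical) for the 10 genes (black diamonds), 16 partners and regulators (purple squares) and 42 target genes (green circles), with dashed lines at 1.5-fold. Right, the log2 difference of Saos-2 minus MG-63 for both lists, ordered, against the percent of the list at or below it, with a median of -2.44 for the targets and -0.31 for the partners and regulators.

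The genes whose profiles over the 4 arrays were nearest to those of EGLN1, EPAS1, ADM and BNIP3L were taken from 11526 genes with a mean log2 level of at least 6. Likeness was the Euclidean distance between log2 values, each less the gene's own mean over the arrays, and 4 points say little about any pair. Nearest to EGLN1 were STOM, a membrane scaffold gene, at 0.25, LRRC49 at 0.26 and LGALS3BP, a secreted glycoprotein gene, at 0.36. Nearest to EPAS1 were AVPI1 at 0.45, the chaperone gene HSP90B1 at 0.49 and MXI1, a MYC antagonist and listed HIF target, at 0.61. A near gene need not share the hairpin change. In MG-63 and Saos-2 EPAS1 changed by -0.70 and -1.08, HSP90B1 by -0.66 and -0.93, AVPI1 by -0.22 and -0.66, and MXI1 by 0.0 and -0.57. FBN1, which encodes the matrix protein fibrillin, was nearest to ADM at 0.27, followed by ADGRE5 at 0.57 and RND3 at 0.75. Their log2 changes were 0.69 and 1.94 for FBN1, 0.20 and 1.18 for ADGRE5, and 0.42 and 0.87 for RND3, against 0.32 and 1.88 for ADM. Nearest to BNIP3L were ATF7IP2 at 0.22, LHFPL2 at 0.35 and the galectin gene LGALS1 at 0.36.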

How the data were processed

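Total RNA of MG-63 and Saos-2 cells was labelled by the authors with a GeneChip WT Pico Reagent Kit, and the deposited log2 signals per probe set came from Affymetrix Expression Console according to the submitters' processing notes. The version, the summarisation, the background correction and the build of the array design are not given in the sources. Grouping followed the sample titles. Gene names came from the platform annotation, and 623 symbols were updated through a RefSeq table of GRCh38.p14. 36176 of 135750 probe sets carried 1 symbol and were used, 1119 carried several and 98455 were unnamed here. In the lists a gene was represented by its brightest probe set.

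Changes are sh-circ_0000073 minus sh-NC on the log2 scale, read at 1.5-fold within a line. limma 3.58.1 in R 4.3.3 was fitted to the 4 arrays with line and hairpin as terms, leaving 1 residual degree of freedom a probe set before moderation (7.43 after it), with eBayes using a trend of variance on mean, and p-values were adjusted by Benjamini-Hochberg over all 36176 probe sets, at 0.05. Tables were handled with pandas 2.3.3, numpy 2.4.6 and scipy 1.17.1 under Python 3.11.15. The fit was tested on simulated data with known changes.

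The 10 genes and both lists were chosen with earlier results of these arrays known. Named are all 10 genes, the up to 4 largest changes past 1.5-fold per list and line, the 4 largest line differences per list, the 3 nearest profiles of 4 of the genes, and markers. The alternatives were quantile normalization, centring, a level minimum, 2-fold, averaged probe sets, and other limma settings. Sequences are from RefSeq and from the study's list of hairpins.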

Additional observations from a re-analysis of the deposited data

Results flagged for a closer look

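Some genes had hairpin changes of opposite direction in the lines, which was not tested because each condition had 1 array. HIF1AN had a change of -0.17 in MG-63 against 0.43 in Saos-2, a difference of 0.60 on the log2 scale, with both changes inside 1.5-fold. The target genes ENO2, PFKFB3 and TFRC were more than 1.5-fold higher in MG-63 and slightly lower in Saos-2, with differences of Saos-2 minus MG-63 of -1.60, -1.20 and -1.10. ENO2 and PFKFB3 were dim in Saos-2, at log2 signals of 3.95 to 4.23. HK2 had a change of 0.44 in MG-63 against -0.94 in Saos-2, a difference of -1.38.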

How the results depend on the processing

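limma called 0 of the 10 genes for the hairpin and 8 for the line under the main setting and all 7 alternatives of each fit, although over all probe sets the hairpin fit called 40 after quantile normalization, 8 with robust moderation, and 20 among probe sets of mean log2 level 6 or more. Over the alternatives the adjusted p for the hairpin ran from 0.197 to 1 for EGLN1, 0.23 to 1 for EPAS1, 0.202 to 1 for ARNT, 0.288 to 1 for EGLN2, 0.255 to 1 for ADM and 0.217 to 1 for BNIP3L. For the line it ran from 2.02e-09 to 0.000278 for EPAS1, 8.51e-08 to 0.000669 for HIF1A and 0.00245 to 0.0305 for VHL. No called change of the 10 genes turned its direction. At 2-fold 1 of the 10 genes, EGLN1, was lower and 0 were higher in MG-63. In Saos-2, 3 genes, EGLN1, EPAS1 and BNIP3L, were lower at 2-fold and 1, ADM, was higher. EGLN2, ARNT and, in MG-63, EPAS1 and, in Saos-2, EGLN3 no longer passed. At 2-fold 1 partner or regulator was higher and 0 lower in MG-63, with 0 higher in Saos-2, and of the targets 1 was higher in MG-63 against 2 in Saos-2, with 0 lower in either. At a mean log2 level of at least 6 the targets had 2 higher and 1 lower in MG-63. After quantile normalization, and after centring, 1 partner or regulator was lower in Saos-2. The hairpin fit paired the arrays by line, and without line as a term it again called 0 probe sets, with an unadjusted p under 0.05 for 360 of the 36176. No array could be left out of the fit, since 3 arrays leave no residual degree of freedom.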
